A study of Mus musculus with 24 samples.

Results

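The retina of 4-week-old mice was set against that of 3-week-old mice. The comparison holds 4 of the 24 libraries of a developmental RNA sequencing series, 2 at postnatal day 28 (P28) and 2 at P21, found by the age label and by the matching column of the deposited gene table. All are whole retina of C57/Bl6N mice with no treatment or engineered allele named in the labels, and were made from 1 µg of total RNA as directional libraries of PolyA RNA. The labels do not say whether the libraries of an age come from separate animals or from a pool. The p-values thus measure only the spread between libraries of one stage, estimated from all 24 libraries.

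By this age the mouse eye has been open for some time, all retinal neurons are born, and rods, the dim-light photoreceptors, outnumber every other cell. Light is caught in the rod outer segment, the signal passes through bipolar cells to ganglion cells, and Müller glia recycle the transmitter and clear potassium. In whole tissue, fewer cells of a type and less RNA per cell cannot be told apart.

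The libraries held 35826535 and 35898879 estimated counts at P28, against 31472998 and 30695867 at P21, and the P28 libraries were the deepest of the series. Levels below are CPM, counts scaled to a common library total after TMM adjustment for composition. Across 12398 genes averaging 5 CPM or more, log2 levels of the P28 replicates differed with a standard deviation (SD) of 0.294 and those of the P21 replicates with an SD of 0.257. Between a P28 and a P21 library this SD was 0.409 to 0.49. The defining genes of retina were abundant: Gnat1, the rod transducin α subunit, stood at 6071 and 6373 CPM at P28 and at 7778 and 7725 CPM at P21.

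Fewer genes passed between these ages than at any other step of the series, and most that did differed by little. Of 21858 genes tested, 1060 (4.85%) passed a Benjamini-Hochberg adjusted p under 0.05 in edgeR's quasi-likelihood test, 597 of them higher (2.73%) and 463 lower (2.12%) at P28. Of the 1060, 866 (81.7%) changed by less than 2-fold. The 194 genes that reached 2-fold (0.888%) were 74 higher (0.339%) and 120 lower (0.549%) at P28. The 4.85% was the smallest share of the 11 steps between neighbouring stages, the next being 8.23% from P4 to P6. It was again the smallest with an offset for base composition and with gene counts summed from transcripts. Neighbouring steps share a stage, so the steps are set side by side as counts only. The count was 2038 with DESeq2 and 2268 with the P28 and P21 libraries fitted alone. Without P28 replicate 1, 249 genes passed, without P28 replicate 2, 128, without P21 replicate 1, 177, and without P21 replicate 2, 168. Both the size and the makeup of the set also depended on base composition and on how counts were assigned to similar genes, as the following values show.

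Genes of low GC content were higher at P28 and genes of high GC content lower. GC content is the share of G and C bases in a gene's transcripts, and it is a property that library preparation and amplification are known to act on. The 12321 genes averaging 5 CPM or more and with a GC value were divided into 10 equal bins. In the lowest bin, with a median GC content of 39.8%, the median log2 change was 0.33, and 21.7% of genes passed as higher against 0.406% as lower. In the highest bin, with a median of 59.1%, the median log2 change was -0.26, with 0.162% passing as higher and 4.38% as lower. The change fell by 0.286 on the log2 scale per 10 points of GC content, with Pearson r = -0.397 across these genes, which are not independent replicates, and r = -0.193 across all 21681 tested genes with a GC value. The trend was present in each pairing of a P28 with a P21 library (r = -0.374 to -0.383), and was smaller between replicates, at r = -0.0833 within P28 and 0.0339 within P21. A GC trend was not particular to this step. Across 12617 genes averaging 5 CPM or more over all 24 libraries, r was -0.341 from P21 to P28 and 0.228 from P14 to P21. Over all steps between neighbouring stages it ranged from -0.458 (P2 to P4) to 0.439 (P0 to P2).

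**Figure D1:**
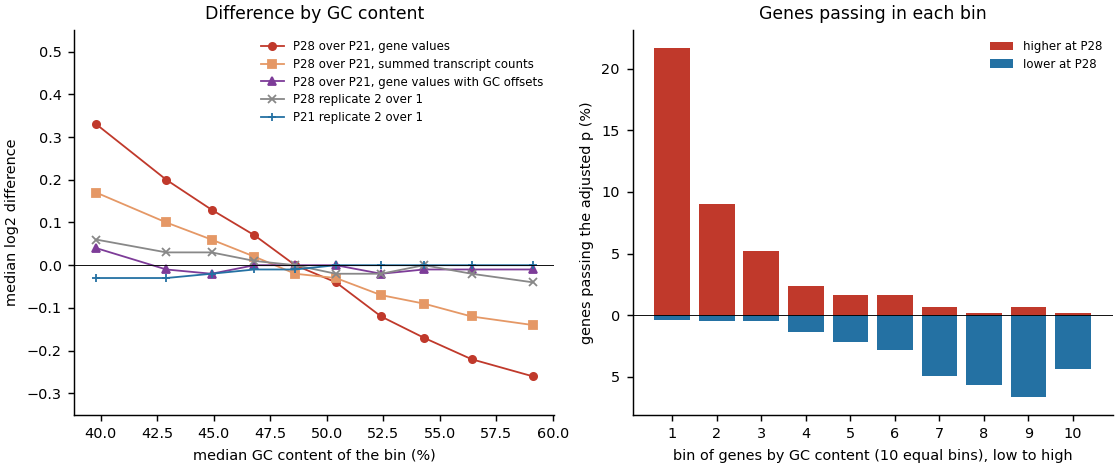
Left, the median log2 difference of genes (y axis) in 10 equal bins of GC content (x axis, percent) among 12321 genes averaging 5 CPM or more, for P28 over P21 from the gene values, from summed transcript counts and with GC offsets, and for replicate 2 over 1 within each age. Right, the percentage of genes in each bin passing the adjusted p as higher at P28 (red, upward) or lower (blue, downward). The P28 over P21 line falls from 0.33 to -0.26 while both replicate lines stay between -0.04 and 0.06.

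The passing genes divided by composition in the same way. The 591 that were higher at P28 and had a GC value had a median of 41.9% GC, and the 461 that were lower a median of 53.8%, against 49.4% for all tested genes. The sequences below show each end of the range, chosen after the values were seen as the lowest-GC rises and the highest-GC falls among nuclear protein-coding genes with at least 20 CPM in the higher age. Each is the middle 90 bases of the coding sequence of the most abundant transcript, from the GENCODE M21 transcripts on GRCm38, read 5′ to 3′ on the gene's own strand, with G and C in capitals.
Lrch2 (gene at chrX:147470375-147554081, minus strand): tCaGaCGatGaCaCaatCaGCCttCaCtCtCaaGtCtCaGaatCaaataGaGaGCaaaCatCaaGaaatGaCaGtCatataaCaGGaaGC
Zfp758 (gene at chr17:22361453-22377281, plus strand): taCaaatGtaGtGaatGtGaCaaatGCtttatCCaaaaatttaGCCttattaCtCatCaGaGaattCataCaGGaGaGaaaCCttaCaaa
C1ql1 (gene at chr11:102939264-102946688, minus strand): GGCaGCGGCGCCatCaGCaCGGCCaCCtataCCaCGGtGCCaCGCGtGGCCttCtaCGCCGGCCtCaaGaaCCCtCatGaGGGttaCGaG
Cdk5r2 (gene at chr1:74854934-74857732, plus strand): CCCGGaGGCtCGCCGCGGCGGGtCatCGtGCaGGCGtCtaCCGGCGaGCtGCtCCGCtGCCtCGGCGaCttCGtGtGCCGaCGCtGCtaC
Of the 90 bases shown, G and C make up 36 in Lrch2, 28 in Zfp758, 59 in C1ql1 and 66 in Cdk5r2. Zfp758, a zinc-finger gene, had 21.9 and 24 CPM at P28 and 13.7 and 13.7 CPM at P21 (log2 change 0.75 ± 0.126 SE, edgeR adjusted p = 0.00399), and with GC offsets its log2 change was 0.46 with an adjusted p of 0.0981. Cdk5r2, which encodes an activator of the neuronal kinase Cdk5, had 88 and 83.3 CPM at P28 and 125 and 124 CPM at P21 (log2 change -0.54 ± 0.133 SE, edgeR adjusted p = 0.0298), and with GC offsets its log2 change was -0.28 with an adjusted p of 0.418. In both genes the ages did not overlap, and neither passed once the offsets were fitted. Zfp758 lost its call without P28 replicate 2 (adjusted p = 0.0639), and Cdk5r2 without each of the 4 libraries (lowest adjusted p = 0.116).

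With an offset for GC content fitted to each library, 304 genes passed (1.39%), 142 higher (0.65%) and 162 lower (0.741%) at P28, and 247 of the 1060 passed in the same direction. The trend was also smaller in the authors' transcript table: with counts summed over each gene's transcripts, the lowest bin had a median log2 change of 0.17 and the highest -0.14, and 263 of 21781 genes passed (1.21%), 106 higher (0.487%) and 157 lower (0.721%). In the 2960 genes with a single transcript and an average of 5 CPM or more, the deposited gene value divided by the transcript count differed between P28 and P21 by a median log2 of 0.18 in the lowest GC bin and -0.11 in the highest (r = -0.786 with GC content), while between replicates this ratio had an SD of 0.00877 at P28 and 0.00698 at P21. In these genes the deposited gene value and transcript count thus differed by an amount that was nearly equal in replicates, unlike between the ages. No source used here states how gene values were made from transcripts, and what part of the trend arose in the tissue was not tested.

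The gene and transcript tables also differed for single genes. Cnga1, a subunit of the rod cyclic-nucleotide-gated channel, had 2324 and 2648 CPM at P28 and 1393 and 1310 CPM at P21 in the gene table (log2 change 0.88 ± 0.139 SE, edgeR adjusted p = 0.00274). Its transcript counts summed to 30832 and 33072 at P28 and to 25880 and 23734 at P21, a log2 change of 0.16 (edgeR adjusted p = 0.802). Cnga1-003, a transcript of 157 bases, had 552 and 634 of these counts at P28 and 270 and 248 at P21. Aacs, acetoacetyl-CoA synthetase, had 26.6 and 39.4 CPM at P28 and 118 and 76.9 CPM at P21 in the gene table (log2 change -1.56), with transcript counts of 1076 and 1141 at P28 and 1196 and 1207 at P21 (log2 change -0.32, edgeR adjusted p = 0.408). Canx, an endoplasmic reticulum chaperone, changed by -1.01 in the gene table (edgeR adjusted p = 0.000476) and by -0.13 from transcripts (edgeR adjusted p = 0.68). C1qtnf6 changed direction, with a log2 change of -2.28 from the gene table (edgeR adjusted p = 0.0428) and 0.81 from transcripts (edgeR adjusted p = 0.208). Without 1 library, C1qtnf6 passed in no case (lowest adjusted p = 0.0787), Aacs passed only without P21 replicate 2 (others 0.0599 to 0.133), and Cnga1 and Canx passed in every case. Canx was chosen after its values were seen.

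Near-identical gene copies made up a large part of the 2-fold set. Of 1050 passing genes with a sequence, 145 (13.8%) had another gene matching over at least 50% of their length at 95% identity or more. Of the 191 such genes called at 2-fold, 88 (46.1%) did, and among those lower at P28 64 of 119 (53.8%). Over all 21628 tested genes with a sequence the share was 7.92% (1712 genes). Of the 194 genes called at 2-fold, 71 were annotated as pseudogenes, 15 higher and 56 lower at P28, against 7.34% of all tested genes. Reads that match both copies have to be divided between them by the quantification, and the levels of such genes are uncertain. With the counts summed within the 111 families that hold a passing gene, 843 of 21424 genes or families passed (3.93%), 499 higher (2.33%) and 344 lower (1.61%). Families were built by linking passing genes to their copies, and the largest held 61 genes. Other copies were not summed, so the lower count depends in part on that choice.

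The plainest case is mt-Atp6, a subunit of ATP synthase encoded by the mitochondrial genome (chrMT:7927-8607, plus strand), and Gm10925 on chromosome 1 (chr1:24613974-24614651, minus strand), annotated as an unprocessed pseudogene. Over all 678 bases of Gm10925 the transcripts had 0 mismatches, and mt-Atp6 has 3 further bases at its 3′ end. The last bases of each show this, from GENCODE M21 on GRCm38, with the bases that only mt-Atp6 has in capitals.
mt-Atp6: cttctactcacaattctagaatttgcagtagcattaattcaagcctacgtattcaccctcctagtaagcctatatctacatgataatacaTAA
Gm10925: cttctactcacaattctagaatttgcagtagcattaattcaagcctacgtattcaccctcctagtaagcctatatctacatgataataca
Gm10925 was listed at 0.947 and 0.087 CPM at P28 and at 2710 and 2550 CPM at P21. At P14 it had 22.5 and 68.7 CPM, and in the 9 earlier stages it lay between 877 and 3209 CPM. mt-Atp6 had 6846 and 6965 CPM at P28 and 2300 and 2083 CPM at P21 (log2 change 1.66 ± 0.294 SE, edgeR adjusted p = 0.0057). The sum of both was 6847 and 6965 CPM at P28 and 5010 and 4633 CPM at P21, still without overlap, and with the copies summed the log2 change was 0.52 ± 0.115 SE (edgeR adjusted p = 0.0205). The call of mt-Atp6 alone was lost without P21 replicate 1 (adjusted p = 0.0529) and without P21 replicate 2 (adjusted p = 0.0746).

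**Figure D2:**
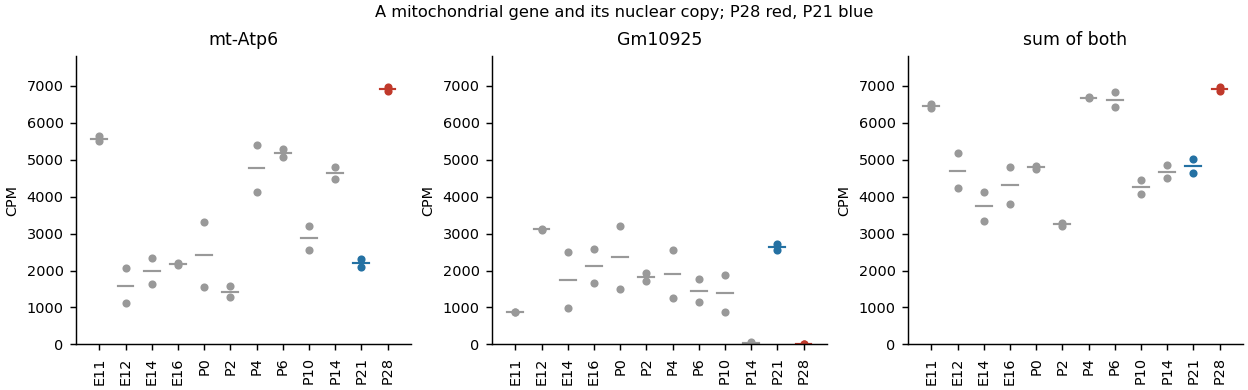
Levels in CPM (y axis) of mt-Atp6, of its chromosome 1 copy Gm10925 and of their sum in the 24 libraries by stage (x axis); points are libraries and bars the mean of 2, with P28 in red and P21 in blue. Gm10925 is near 0 at P28 and P14 and at 2710 and 2550 CPM at P21, and the sum at P28 (6847 and 6965 CPM) lies above that at P21.

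Other pairs behaved in more than one way when copies were summed. Hspa8, a constitutive heat shock chaperone, had 858 and 1073 CPM at P28 and 694 and 295 CPM at P21 (log2 change 0.97, edgeR adjusted p = 0.0472), while its pseudogene Gm15459 had 1.67 and 1.16 CPM at P28 and 311 and 462 CPM at P21. In every library outside P21, Gm15459 was at or below 5.53 CPM. Summed over its 5 near-identical genes, the change of Hspa8 was 0.05 ± 0.169 SE (edgeR adjusted p = 0.914). Alone, Hspa8 passed only without P21 replicate 1 among the libraries left out (highest adjusted p = 0.316). Capza1, an actin-capping subunit, changed by 1.07 alone and by 0.29 with Gm3608 added (edgeR adjusted p = 0.165). mt-Nd3, a complex I subunit, changed by 1.14 alone and by 0.75 ± 0.159 SE with Gm28438 added (edgeR adjusted p = 0.0169), Gm28438 being listed at 0 in both P28 libraries and at 112 and 74.3 CPM at P21. The 3 double homeobox genes Duxbl1, Duxbl2 and Duxbl3 rose together: their sum was 33.4 and 26.5 CPM at P28, 4.75 and 8.29 CPM at P21, and 79.9 and 79 CPM at P14 (log2 change of P28 over P21 2.21 ± 0.232 SE, edgeR adjusted p = 0.000118). H3f3c, a histone H3 sequence annotated as a processed pseudogene, changed by -1.18 alone (0.188 as the highest adjusted p without 1 library) and by 0.12 over its 8 copies (edgeR adjusted p = 0.481). Alone, mt-Nd3 did not pass with any library left out (lowest adjusted p = 0.0579). Gm10925, Gm15459, Gm3608, Gm28438 and Capza1 were chosen after their values were seen.

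Genes that passed in the gene table, with GC offsets, from summed transcripts and with copies summed numbered 100, 51 higher and 49 lower at P28. Of these, 63 had at least 5 CPM, did not overlap between the ages and had an established symbol, and 22 of the 63 also passed without each of the 4 libraries in turn, 12 higher and 10 lower. Of all passing genes 99.4% did not overlap, against 57.4% of all tested genes, so that this condition removed few. This set was chosen after the values were seen. The lower genes included Tecta, Muc6, Sft2d2, Tmem206, Zfp605, Mesdc2 and Uba1. The 12 higher genes were Duxbl1, mt-Tm, Lars2, mt-Ts1, mt-Atp8, Churc1, Zfp938, Rab14, Gas5, Zfp617, Klf9 and Ubxn2a.

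Several of the largest falls were genes that were high at P21 alone. Tecta (chr9:42329619-42399929), which encodes α-tectorin of the tectorial membrane of the inner ear, had 0.316 and 0.232 CPM at P28 and 18.6 and 40.4 CPM at P21 (log2 change -6.73 ± 0.734 SE, edgeR adjusted p = 9.98e-05). In the 22 libraries outside P21 it did not exceed 2.56 CPM. Of its transcript counts, Tecta-003, a processed transcript, held 3 and 2 at P28 and 292 and 621 at P21, while the protein-coding Tecta-002 held 11 and 7 at P28 and 6 and 11 at P21. The difference thus lay in a transcript annotated as non-coding.

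Muc6, a secreted mucin, had 0.775 and 0.609 CPM at P28 and 5.19 and 4.96 CPM at P21 (log2 change -2.87 ± 0.29 SE, edgeR adjusted p = 4.25e-05), with at most 1.64 CPM outside P21. Col24a1, a fibrillar collagen, had 2.87 and 5.39 CPM at P28 and 17.4 and 17.2 CPM at P21 (log2 change -2.06 ± 0.344 SE, edgeR adjusted p = 0.00365), and without P28 replicate 1 its adjusted p was 0.0534. Sft2d2 had 29.8 and 27.9 CPM at P28 and 65.1 and 81.7 CPM at P21 (log2 change -1.35 ± 0.201 SE, edgeR adjusted p = 0.00168). Unlike the others it was also high at P2, with 141 and 74.3 CPM. Of the 12 largest falls, 6 had both P21 libraries above all other 22 libraries of the series, and of the 12 largest rises 2, Duxbl1 and Duxbl2, had both P21 libraries below all others. The rule that named these genes already set both P21 libraries apart from both P28 libraries. No share over all genes is given beside these counts, so they describe the named genes only. Rtkn2 rested on 1 library: it had 2.53 and 2.41 CPM at P28 and 2.53 and 25.3 CPM at P21, and without P21 replicate 2 its log2 change was -0.03.

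Fndc1, a fibronectin-domain protein, had 33.4 and 22.9 CPM at P28 and 68.9 and 79.2 CPM at P21 (log2 change -1.40 ± 0.28 SE, edgeR adjusted p = 0.0113). It had climbed to 15.3 and 12.9 CPM by P14, so P28 was above every stage up to P14, and it passed without P28 replicate 1 but not without any of the other 3 libraries (highest adjusted p = 0.161). Ndrg2, an astroglial protein, had 95.8 and 77.1 CPM at P28 and 139 and 144 CPM at P21 (log2 change -0.71 ± 0.129 SE, edgeR adjusted p = 0.0064), with an adjusted p of 0.111 without P28 replicate 2. Uba1, the main ubiquitin-activating enzyme, had 297 and 264 CPM at P28 and 435 and 431 CPM at P21. Ndrg2 and Uba1 were chosen after their values were seen.

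**Figure D3:**
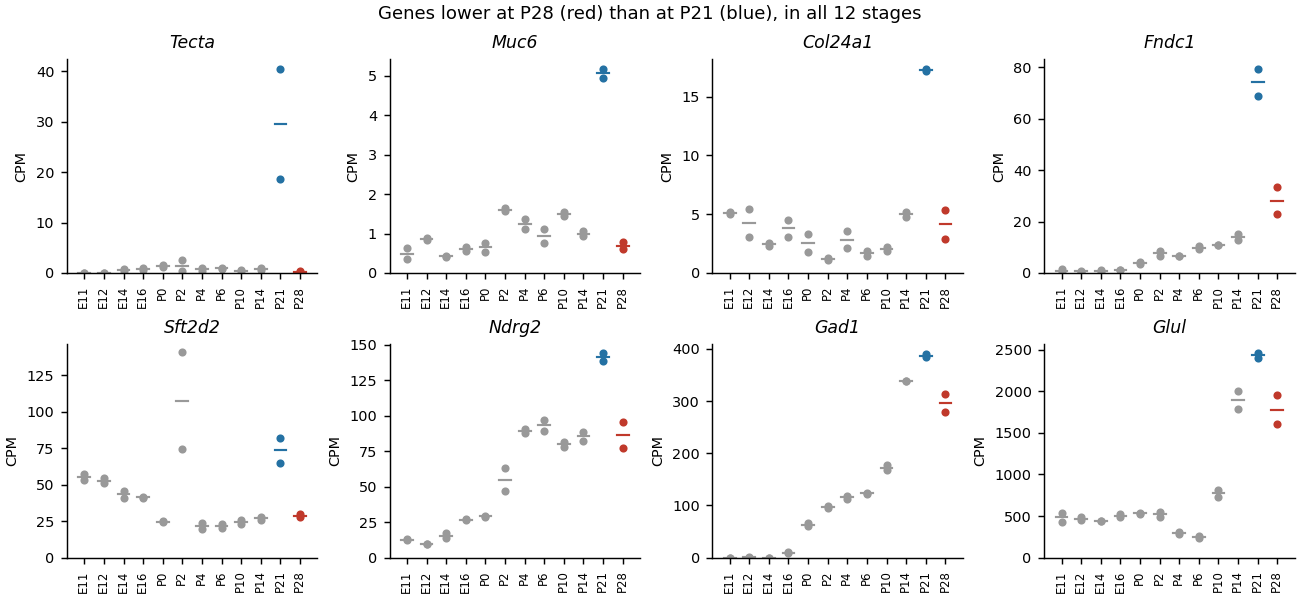
Levels in CPM (y axis) of 8 genes lower at P28 in the 24 libraries, by stage (x axis, E11 to P28); points are libraries, bars the mean of 2, P28 red, P21 blue. Tecta, Muc6 and Col24a1 are high at P21 and low at both neighbouring stages, whereas Glul, at 1952 and 1608 CPM at P28, follows a climb through P14.

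The largest rises included RNA that poly(A) selection is not aimed at. Rn18s-rs5 (chr17:39846353-39848827), annotated as ribosomal RNA, had 1296 and 1224 CPM at P28 and 318 and 174 CPM at P21 (log2 change 2.36 ± 0.379 SE, edgeR adjusted p = 0.00293; 0.0582 without P21 replicate 2). Lars2, mitochondrial leucyl-tRNA synthetase, is annotated as protein-coding, and which RNA its counts came from was not tested. It is given here for its course over the stages, described below. Lars2 had 1100 and 956 CPM at P28 and 267 and 148 CPM at P21 (log2 change 2.31 ± 0.326 SE, edgeR adjusted p = 0.00111). AY036118, a long non-coding RNA whose annotated interval (chr17:39847113-39848035) lies inside that of Rn18s-rs5 on the same strand, had 448 and 413 CPM at P28 and 133 and 83.5 CPM at P21, and Mir6236 had 116 and 105 CPM at P28 and 33.5 and 15.7 CPM at P21. All 4 were higher at P14 than at P28, with Rn18s-rs5 at 2750 and 2603 CPM and Lars2 at 2282 and 2143 CPM, and all 4 had their highest library at E12, up to 12100 CPM for Rn18s-rs5 and 13200 CPM for Lars2. Their levels did not run in one direction with age, and the overlapping intervals leave the levels of Rn18s-rs5 and AY036118 uncertain. Mir6236 passed only without P21 replicate 1 among the 4 libraries left out (adjusted p = 0.0314 to 0.152), and AY036118 had an adjusted p of 0.0952 without P21 replicate 2. Whether the amount of ribosomal RNA carried into each library bears on other genes was not tested.

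Both mitochondrial tRNAs among the largest rises reached their highest levels of the series at P28. mt-Ts1, a serine tRNA, had 249 and 277 CPM at P28 and 104 and 93.7 CPM at P21 (log2 change 1.42 ± 0.122 SE, edgeR adjusted p = 7.1e-06), and mt-Tm, the methionine tRNA, had 7.43 and 8.21 CPM at P28 and 1.7 and 1.28 CPM at P21 (log2 change 2.39 ± 0.322 SE, edgeR adjusted p = 0.000702). Whether their counts came from longer RNA that holds these sequences was not tested. Their sequences, from GENCODE M21 on GRCm38 with G and C in capitals, show how short the annotated genes are, at 69 bases each.
mt-Ts1 (chrMT:6870-6938, minus strand): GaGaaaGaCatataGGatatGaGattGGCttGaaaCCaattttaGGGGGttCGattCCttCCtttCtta
mt-Tm (chrMT:3845-3913, plus strand): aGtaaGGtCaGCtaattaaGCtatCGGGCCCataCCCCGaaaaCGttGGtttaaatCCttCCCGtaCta
Of the 13 protein-coding mitochondrial genes, 4 rose and none fell (background 2.73% rising and 2.12% falling), with a median log2 change of 0.34 against 0.00 over all genes. They were mt-Atp8 (1151 and 1246 CPM at P28, 656 and 560 CPM at P21, log2 change 0.98 ± 0.125 SE, edgeR adjusted p = 0.000451), mt-Atp6, mt-Nd3 and mt-Nd2. Of these mt-Atp8 alone passed without each library in turn, and mt-Nd2 passed in no such case (lowest adjusted p = 0.161). The median GC content of the 13 is 37.1%, and with GC offsets 2 rose and the median log2 change was 0.05. mt-Co1, a cytochrome oxidase subunit, had 10830 and 10990 CPM at P28 and 9991 and 9064 CPM at P21 (log2 change 0.20 ± 0.0992 SE, edgeR adjusted p = 0.29), and with GC offsets its log2 change was -0.09.

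Among the remaining rises were 2 transcription factors of the Krüppel-like family. Klf9, which thyroid hormone and glucocorticoids induce in other tissues, had 139 and 119 CPM at P28 and 83.4 and 81.6 CPM at P21 (log2 change 0.65 ± 0.105 SE, edgeR adjusted p = 0.00304), with 157 and 174 CPM at P14. Klf13 had 54.2 and 40.3 CPM at P28 and 28.6 and 29.7 CPM at P21 (log2 change 0.70 ± 0.133 SE, edgeR adjusted p = 0.00906), with 96.3 and 94.5 CPM at P14, and it passed only without P28 replicate 2 among the libraries left out (adjusted p = 0.00569 to 0.109). In both genes P21 was the low point of the last 3 stages. Klf9 was the only one of 13 glucocorticoid-response genes to pass. Rec8, a cohesin subunit of meiosis, had 16.7 and 9.34 CPM at P28 and 2.13 and 3 CPM at P21 (log2 change 2.34 ± 0.399 SE, edgeR adjusted p = 0.00418), with an adjusted p of 0.0732 without P21 replicate 1 and 0.0502 without P28 replicate 1. Fam166a had 5.17 and 6.41 CPM at P28 and 0.166 and 0.0337 CPM at P21 (log2 change 5.79 ± 1.25 SE, edgeR adjusted p = 0.0176) and did not pass with any of the 4 libraries left out (adjusted p = 0.0524 to 0.162). Rab14, a small GTPase of endosomes, had 243 and 259 CPM at P28 and 154 and 142 CPM at P21 (log2 change 0.76 ± 0.0897 SE, edgeR adjusted p = 0.000218), and Gas5, a host gene of small nucleolar RNA, had 88.1 and 93.3 CPM at P28 and 55.3 and 53.6 CPM at P21. Klf13, Rab14 and Gas5 were chosen after their values were seen.

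**Figure D4:**
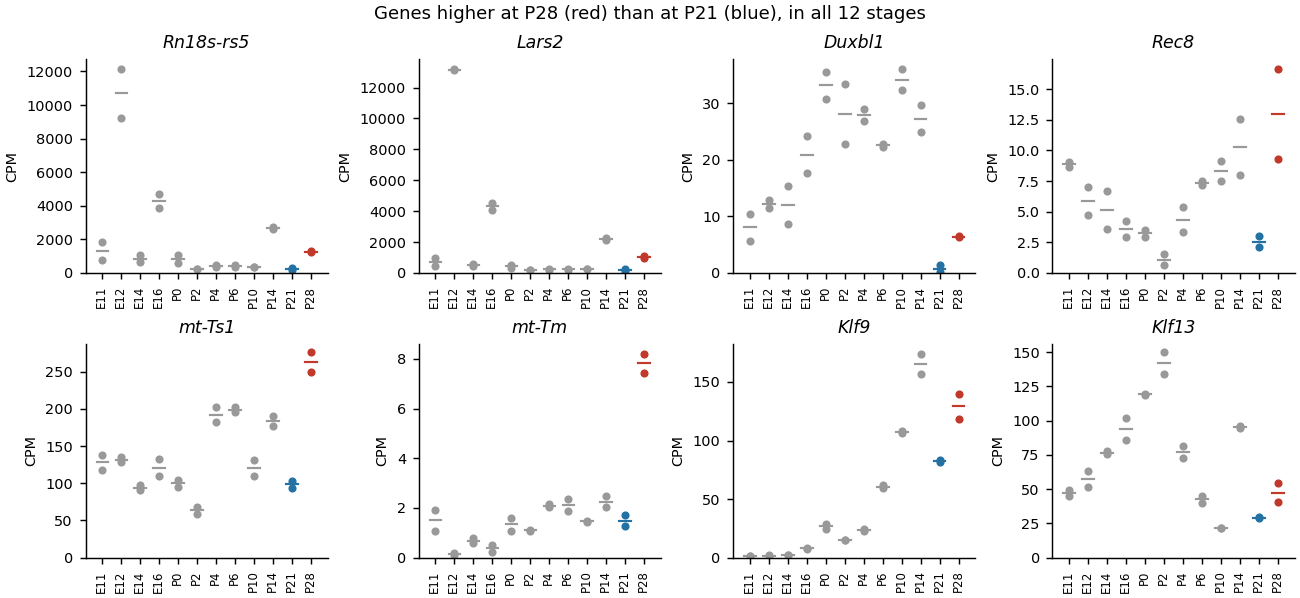
Levels in CPM (y axis) of 8 genes higher at P28 in the 24 libraries, by stage (x axis, E11 to P28); points are libraries, bars the mean of 2, P28 red, P21 blue. Rn18s-rs5 and Lars2 peak at E12 and stand higher at P14 than at P28, mt-Ts1 and mt-Tm are highest at P28 (249 and 277 CPM, and 7.43 and 8.21 CPM), and Klf9 and Klf13 have their low point of the last 3 stages at P21.

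Few genes of the retinal cell types passed. Over the lists of retinal, vascular and neighbouring-tissue markers, 6 of 244 tested genes passed, against 4.85% of all genes. None of 16 cone, 22 bipolar, 10 horizontal, 18 ganglion, 7 astrocyte and 14 microglia markers passed. Of 19 rod markers, Cnga1 and Gngt1 rose and Reep6 fell. Gngt1, the rod transducin γ subunit, had 830 and 1036 CPM at P28 and 619 and 581 CPM at P21 (log2 change 0.64 ± 0.149 SE, edgeR adjusted p = 0.0239), and Reep6, a rod membrane-trafficking protein, had 646 and 585 CPM at P28 and 858 and 855 CPM at P21 (log2 change -0.48 ± 0.125 SE, edgeR adjusted p = 0.0384). With GC offsets Cnga1 was the only rod gene to pass, and from summed transcripts none did. Gngt1 passed only without P28 replicate 1 among the libraries left out, and Reep6 in no case (lowest adjusted p = 0.105).

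Of the followed photoreceptor and bipolar genes, Pde6b, Nrl, Arr3, Opn1sw, Opn1mw and Grm6 did not pass. Pde6b, a rod phosphodiesterase subunit, had 2203 and 2545 CPM at P28 and 2477 and 2382 CPM at P21. Nrl, the transcription factor that sets rod fate, had 1310 and 1394 CPM at P28 and 1377 and 1272 CPM at P21. In cones, Arr3, the cone arrestin, had 328 and 404 CPM at P28 and 351 and 346 CPM at P21. Opn1sw, the short-wavelength opsin, had 418 and 393 CPM at P28 and 535 and 472 CPM at P21 (edgeR adjusted p = 0.365), and Opn1mw, the medium-wavelength opsin, had 178 and 142 CPM at P28 and 144 and 133 CPM at P21 (edgeR adjusted p = 0.652). Grm6, the receptor through which ON bipolar cells sense glutamate, had 156 and 176 CPM at P28 and 139 and 171 CPM at P21. The ages overlapped in these genes except in Opn1sw, while in 57.4% of all tested genes they did not.

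In inner retina and glia, Gad1 and Glul fell in the gene table. Gad1, the enzyme that makes GABA in amacrine cells, had 313 and 279 CPM at P28 and 391 and 384 CPM at P21 (log2 change -0.39 ± 0.103 SE, edgeR adjusted p = 0.0412). Its edgeR adjusted p was 0.0431 with GC offsets and 0.195 from summed transcripts. Glul, glutamine synthetase of Müller glia, had 1952 and 1608 CPM at P28 and 2463 and 2407 CPM at P21 (log2 change -0.45 ± 0.111 SE, edgeR adjusted p = 0.0297). For Glul the edgeR adjusted p was 0.0587 with GC offsets and 0.05 from summed transcripts. Gad1 did not pass with any of the 4 libraries left out (lowest adjusted p = 0.0851) and Glul passed only without P28 replicate 1 (highest adjusted p = 0.291). The Müller glia list had a median log2 change of -0.23 over 18 genes, with Glul the only one to pass. Rlbp1, the retinaldehyde-binding protein of these cells, had 249 and 255 CPM at P28 and 361 and 389 CPM at P21, without overlap and with an edgeR adjusted p of 0.103 from the gene table and 0.0391 from summed transcripts. Thy1, a ganglion cell surface protein, had 132 and 127 CPM at P28 and 161 and 155 CPM at P21 (edgeR adjusted p = 0.187). Slc17a7, the vesicular glutamate transporter of photoreceptors and bipolar cells, had 1095 and 1101 CPM at P28 and 1487 and 1501 CPM at P21 (edgeR adjusted p = 0.0552), and with GC offsets its adjusted p was 0.648.

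Lens genes differed between libraries of one age. The summed level of 21 lens genes was 33.9 and 45.8 CPM at P28 and 108 and 44.9 CPM at P21, so that P21 replicate 1 stood apart, and their median log2 change of -1.12 came with no gene passing. The part of lens tissue in other results was not tested. Cryaa, the α-crystallin, had 4.36 and 8.9 CPM at P28 and 31.2 and 7.96 CPM at P21. The 15 pigment epithelium genes summed to 669 and 640 CPM at P28 and 571 and 593 CPM at P21, and none passed. Rpe65, the visual-cycle isomerase of that layer, had 4.79 and 8.12 CPM at P28 and 0.897 and 2.83 CPM at P21 (log2 change 1.79 ± 0.546 SE, edgeR adjusted p = 0.07). Of 12 endothelial genes, whose median log2 change was -0.24, Pecam1, a junction protein, passed as higher, with 35.3 and 34.2 CPM at P28 and 19.9 and 19.2 CPM at P21 (log2 change 0.83 ± 0.216 SE, edgeR adjusted p = 0.0371). It did not pass with any of the 4 libraries left out, with GC offsets (adjusted p = 0.0666) or from summed transcripts (adjusted p = 0.221). Pecam1-009, a retained intron, held 765 and 674 of its transcript counts at P28 and 209 and 165 at P21.

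Among pathways, glycolysis had the most falling members. Of 21 genes, 6 fell and none rose (background 2.12% falling and 2.73% rising), with a median log2 change of -0.37 against 0.00 over all genes. Eno1, an enolase, had 1562 and 1473 CPM at P28 and 2580 and 2734 CPM at P21 (log2 change -0.81 ± 0.156 SE, edgeR adjusted p = 0.0093). Aldoa, an aldolase, had 1285 and 1294 CPM at P28 and 2053 and 2037 CPM at P21 (log2 change -0.67 ± 0.158 SE, edgeR adjusted p = 0.0256). The others were Gpi1, Pfkm, Tpi1 and Pkm, with log2 changes from -0.50 to -0.66. The median GC content of the list is 53.8%, against 49.4% over all genes. With GC offsets Gpi1 alone passed and the median log2 change was -0.21, and from summed transcripts Gpi1 and Pfkm passed. Gpi1, glucose-6-phosphate isomerase, had 657 and 639 CPM at P28 and 994 and 1046 CPM at P21 (log2 change -0.66 ± 0.111 SE, edgeR adjusted p = 0.00399; 0.0609 without P28 replicate 2). Eno1 passed only without P21 replicate 1 (highest adjusted p = 0.104) and Aldoa in no such case (lowest adjusted p = 0.13). Summed over Eno1 and its near-identical genes, 4 in all, the change was -0.80 ± 0.0852 SE (edgeR adjusted p = 0.000122).

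Of 36 nuclear genes of oxidative phosphorylation, 8 rose and 1 fell (background 2.73% rising and 2.12% falling), the rest did not pass, and the median log2 change was 0.10. From summed transcripts 1 rose and none fell, with a median of 0.03, and with copies summed 5 rose and 1 fell. Uqcrb, a complex III subunit, had 68.9 and 76.4 CPM at P28 and 47.5 and 45.2 CPM at P21 (log2 change 0.65 ± 0.128 SE, edgeR adjusted p = 0.0105), and Cycs, cytochrome c, changed by 0.64 alone and by 0.17 over its 4 copies (edgeR adjusted p = 0.539). Uqcrb passed only without P28 replicate 1 among the libraries left out, and Cycs in no case. With GC offsets 2 rose, Cox5b and Cox7a2, and none fell. Of 40 cytoplasmic ribosomal protein genes, 6 rose and none fell (background 2.73% rising and 2.12% falling), with a median log2 change of 0.16. Rps6 had 59.2 and 92.3 CPM at P28 and 47.7 and 46.7 CPM at P21 (log2 change 0.68 ± 0.154 SE, edgeR adjusted p = 0.0202), and summed over its 8 copies changed by -0.04 (edgeR adjusted p = 0.877). Rps20 changed by 0.62 alone and by 0.15 with its copy (edgeR adjusted p = 0.553). Rps6 and Rps20 passed only without P28 replicate 1. Of the ribosomal protein genes, 5 rose with GC offsets (median log2 change 0.22), 2 passed with copies summed (median 0.09) and 1 from summed transcripts (median 0.11).

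In the other pathways 1 or 2 genes passed, or none, where 4.85% of all tested genes did. Cep290 and Rpgr, proteins of the photoreceptor connecting cilium, rose by 0.60 and 0.52 on the log2 scale among 22 cilium genes (edgeR adjusted p = 0.0338 and 0.0106), and neither passed with GC offsets. Fabp7, a brain fatty-acid-binding protein, had 0.689 and 0.928 CPM at P28 and 1.93 and 1.55 CPM at P21 (log2 change -1.10 ± 0.298 SE, edgeR adjusted p = 0.0435). Mfsd2a, a transporter of the omega-3 lipid DHA, fell by 0.71 on the log2 scale (edgeR adjusted p = 0.05), Mvd of cholesterol synthesis by 0.74 (edgeR adjusted p = 0.0469), Bcan, the proteoglycan brevican, by 1.15 (edgeR adjusted p = 0.036) and Mcm2, a replication helicase subunit, by 0.67 (edgeR adjusted p = 0.033). B2m, the light chain of class I antigen-presenting molecules, rose by 0.60 (edgeR adjusted p = 0.0204). With GC offsets Fabp7 passed (edgeR adjusted p = 0.0216), and Mfsd2a, Mvd, Bcan, Mcm2 and B2m did not (edgeR adjusted p = 0.126 to 0.336). None of these 8 genes passed with any 1 of the 4 libraries left out.

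None of 19 clock genes, 14 immediate early genes, 16 stress and gliosis genes, 16 ribbon synapse genes and 28 genes of synapse maturation passed. Over all tested genes 4.85% passed, and each of these lists is small. Per2 had 54.1 and 43.8 CPM at P28 and 15.7 and 32 CPM at P21 (log2 change 1.04 ± 0.558 SE, edgeR adjusted p = 0.324), and Dbp, a clock output gene, had 67.8 and 58.8 CPM at P28 and 81.4 and 88.8 CPM at P21 (edgeR adjusted p = 0.19). Fos had 33.7 and 18.6 CPM at P28 and 16.9 and 15.5 CPM at P21 (edgeR adjusted p = 0.183). The time of day of collection is not in the labels. Gfap, the filament protein that rises in gliosis, averaged 10.4 ± 4.03 CPM at P28 and 12.7 ± 0.766 CPM at P21 (SD, n = 2 each), and Edn2, a signal of photoreceptor injury, had 0.804 and 3.6 CPM at P28 and 2.03 and 2.02 CPM at P21. Kcnv2, a photoreceptor potassium channel subunit, had 666 and 697 CPM at P28 and 740 and 696 CPM at P21. In Gfap, Edn2 and Kcnv2 the ages overlapped.

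**Figure D5:**
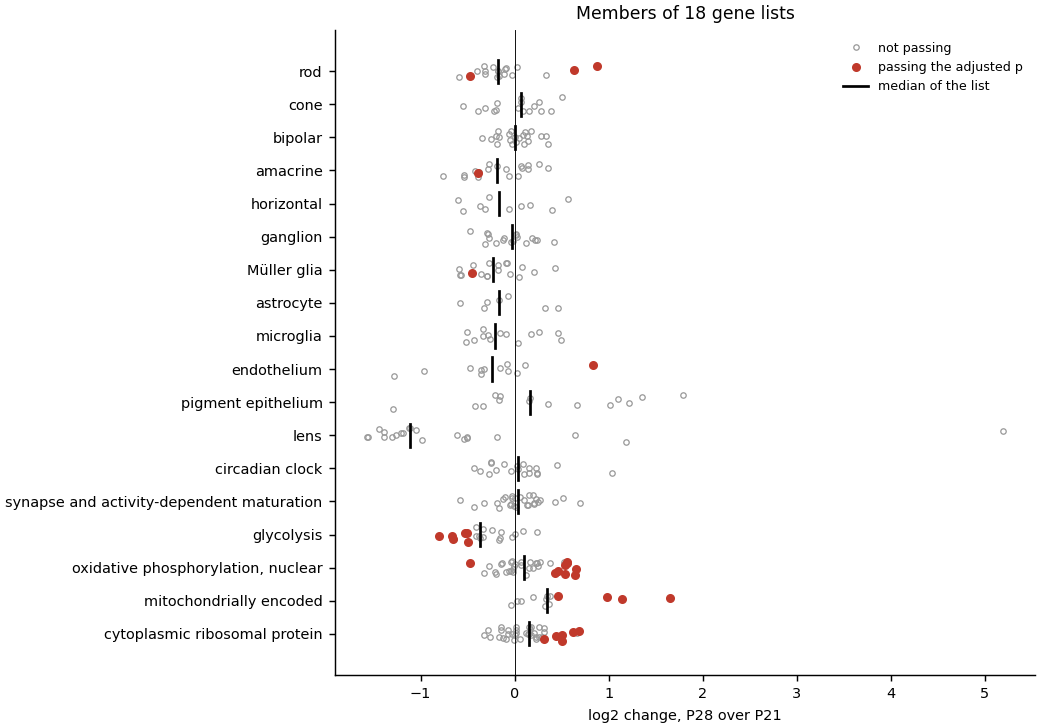
The log2 change of P28 over P21 (x axis) of each tested member of 18 gene lists (rows); filled red points pass the adjusted p, open grey points do not, and the black bar is the median of the list. Cell type lists lie around 0 with few passing genes, the lens list has a median of -1.12 with none passing, and glycolysis (median -0.37) and mitochondrially encoded genes (median 0.34) lie to either side.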

How the data were processed

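The authors deposited estimated counts per transcript and per gene, and the gene table was analysed. Per the submitters' processing notes, kallisto 0.42.4 and edgeR 3.13.9 were used on GRCm38.p5. Counts were rounded to whole numbers and fitted with edgeR 4.0.16 in R 4.3.3 (limma 3.58.1, DESeq2 1.42.0 as an alternative). Genes were kept with filterByExpr (minimum count 10), scaled by TMM, and tested with a quasi-likelihood model of 24 libraries with 1 coefficient per stage (12 residual degrees of freedom), with Benjamini-Hochberg adjustment over 21858 genes. The SE of a log2 change was obtained as its size over the root of the F statistic.

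GC content was taken from GENCODE M21 transcripts matched by ID, weighted by counts, and 99.2% of tested and of passing genes had a value. GC offsets were natural splines (5 degrees of freedom) fitted to each library. Near-identical copies were found with megablast at 95% identity over 50% of the length. The script was tested on simulated data.

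The rule named the 12 largest rises and falls called at 2-fold with at least 5 CPM, no overlap between ages and an established symbol, up to 2 passing members per list, and 20 followed genes. The comparison, the 40 lists (602 of 619 symbols tested) and the rule were chosen with earlier results of these data known. Replicate numbers did not pair the libraries. Alternatives are given below, and the deposited CPM and comparison tables were not used here. Some genes of the named set and of the lists are counted but not reported here by name.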

Additional observations from a re-analysis of the deposited data

How the results depend on the processing

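The count of 1060 passing genes moved by over 1.5 times to 2038 with DESeq2, 2268 with the P28 and P21 libraries fitted alone, 304 with GC offsets, 389 with GC and length offsets, 263 from summed transcripts, 226 from summed transcripts with GC offsets, 281 with a replicate block and GC offsets, 130 in a test against 1.2-fold (glmTreat) and 128 to 249 without 1 library. The count of 194 at 2-fold became 429 without a filter, 329 with 4 libraries alone, 114 with GC offsets, 120 with length added, 106 from summed transcripts, 102 with GC offsets added to these, 117 with the block and GC offsets, 84 with glmTreat, 103 with copies summed and 71 to 98 without 1 library. The 41 passing list genes became 76 without a filter, 83 with DESeq2, and in the same order 97, 14, 21, 11, 10, 11 and 5, and 6 to 15 without 1 library. With a library left out, the lone one of its stage is assumed to vary like the other stages. With the replicate number as a block, 832 genes passed and 178 reached 2-fold; same-numbered P28 and P21 libraries deviated together with r = 0.0219, so the numbers do not pair them.

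The GC trend of the fitted change (r = -0.193) was -0.397 at 5 CPM or more. Taken from log2 CPM instead, it was -0.274 with TMM and -0.276 with library size alone, and -0.214, -0.218, -0.239 and -0.245 in the 4 pairings. From the fitted change it was -0.115 from summed transcripts and -0.00278 with GC offsets, where it is removed by construction. P28 against P21 had the fewest passing genes of the steps in the 3 settings where they were ranked, the gene table, GC offsets and summed transcripts.

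Of 46 passing named genes, 11 passed without each library and 35 did not. Signs changed for C1qtnf6 (0.81 from summed transcripts, 0.92 with GC offsets added) and, with copies summed, H3f3c (0.12) and Rps6 (-0.04). Among named genes that did not pass, signs changed for Pde6b (0.01 with GC and length offsets, 0.00 from summed transcripts with GC offsets, -0.14 to 0.07 without 1 library), Gfap (0.05 from summed transcripts with GC offsets, -0.76 to 0.05 without 1 library), Edn2 (-0.20 with the replicate block, -1.33 to 0.83 without 1 library) and mt-Co1 (-0.09 with GC offsets, with or without the block, -0.10 with length added, -0.01 from summed transcripts with GC offsets). Without 1 library, Arr3 ranged from -0.09 to 0.21, Nrl from -0.03 to 0.09 and Grm6 from -0.04 to 0.26. Where no value above shows it, the cause was not tested. Summed transcripts with GC offsets, and copies summed, were chosen after seeing the data. With 2 libraries an age, small changes cannot be told from library differences.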
